A study of Mus musculus with 10 samples.

Results

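R-spondins are secreted proteins that strengthen Wnt signalling, and the set described here holds their genes with those of the proteins they act through. It has 9 members among the 55487 genes measured: the ligands Rspo1, Rspo2, Rspo3 and Rspo4, the receptors Lgr4, Lgr5 and Lgr6, and the transmembrane ubiquitin ligases Znrf3 and Rnf43. The set was chosen by gene family and because Rspo1 was seen to be higher in Usp7 cKO cortex, so the level of Rspo1 is given as a description, with no test. Tests were kept for the other members and for exon and intron usage, which the choice did not rest on. Genes of other lists are also given with p-values. The members and these lists were chosen with earlier results of these data known. Most list genes are named by smallest p, so their p-values are descriptions.

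ZNRF3 and RNF43 tag Frizzled receptors with ubiquitin, which takes them off the cell surface and dampens the response to Wnt. An R-spondin that binds an LGR receptor on one side and ZNRF3 or RNF43 on the other removes the ligase, so that more Frizzled stays at the surface. In the mouse cortex Rspo1 is known as a marker of layer 4 glutamatergic neurons, the layer that receives input from the thalamus.

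The data are RNA levels in whole cerebral cortex of mice at postnatal day 18, in 5 Usp7 cKO (conditional knockout) and 5 Usp7 WT animals, each group with 3 females and 2 males by label. Usp7, which encodes a deubiquitinase, was floxed (Usp7 fl/fl) and deleted with NEX-cre, which is driven from the Neurod6 locus in forebrain glutamatergic neurons. All 10 animals, controls included, were Trp53+/-, and the labels do not say whether Usp7 WT animals carried NEX-cre. Ribosomal RNA was removed before random-primed cDNA synthesis, and the design text speaks of litter- and sex-controlled pairs without naming them. Levels are in TPM (read abundance scaled by gene length and library total), which can be compared between genes. Read counts per exon bin (a stretch of exon shared by the same transcripts) totalled 42628526 to 51797145 per library.

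Usp7 itself was at 53.9 ± 5.32 TPM in Usp7 WT against 36.9 ± 3.96 TPM in Usp7 cKO (SD, n = 5 each), a log2 change of -0.54 (limma adjusted p = 0.00131), and a cortex sample also holds cells in which NEX-cre is not active. Neurod6 fell from 52.1 ± 1.97 to 24.2 ± 2.45 TPM (log2 -1.10, limma adjusted p = 1.11e-05), and its lower level cannot be told apart from the loss of Usp7. The sex genes of 2 libraries, Usp7 WT replicate 2 (labelled female) and Usp7 cKO replicate 1 (labelled male), went against their labelled sex. By these genes the groups were thus not balanced for sex. Labelled sex was kept in the fit, and counts of calls that move by over 1.5 times without these 2 libraries are given both ways. Of 12 microglia markers 11 were lower in Usp7 cKO (summed level 442 to 499 TPM in Usp7 WT, 304 to 349 TPM in Usp7 cKO), and 11 were lower without those 2 libraries. Choroid plexus and ependymal markers summed to between 43.7 and 908.6 TPM in Usp7 WT and between 33.0 and 459 TPM in Usp7 cKO. Much of this is Ttr (332 ± 345 and 142 ± 180 TPM). Fibroblast markers summed to 262 to 558 TPM and 323 to 588 TPM, much of it Ptgds (325 ± 122 and 369 ± 104 TPM). Of 8 choroid plexus and ependymal markers 1 was higher and 0 lower, and 0 of 10 fibroblast markers were called. Without the libraries of discordant sex 0 of either list were called. Among 15 tested markers of striatum, hippocampus and thalamus 4 were higher and 0 lower, and of the 4, Dsp (0.319 TPM in Usp7 WT, 3.98 TPM in Usp7 cKO) passed the minimum of 0.5 TPM for the test through Usp7 cKO alone. Of 11 GABAergic neuron markers 2 were lower, of 10 astrocyte markers 2 were higher, and 0 of 12 oligodendrocyte lineage and 0 of 11 endothelial and mural markers were called in either direction. Without the libraries of discordant sex 0 GABAergic and 0 astrocyte markers were called. With TPM rescaled, and in edgeR and DESeq2, 2 astrocyte markers were higher while 2, 2 and 3 were lower. Over all genes tested by limma 9.22% were called higher and 4.67% lower. The part of these markers in the results below was not tested. In whole cortex, fewer cells of a type and less RNA per cell cannot be told apart.

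Sequences upstream of the transcript start are shown for Rspo1, Lgr6 and Lgr4. Rspo1 had the largest difference and Lgr6 the largest among the members tested, while Lgr4 was the most abundant member in Usp7 WT. Neither Lgr6 nor Lgr4 passed the limma test, and the level of Rspo1 was not tested. Shown are the 250 bases before the start in RefSeq (GRCm38.p6), read in the direction of the gene, with each CG in capitals: Rspo1 at chr4:124986180-124986429 on the plus strand, Lgr6 at chr1:135105277-135105526 on the minus strand and Lgr4 at chr2:109917397-109917646 on the plus strand.
Rspo1: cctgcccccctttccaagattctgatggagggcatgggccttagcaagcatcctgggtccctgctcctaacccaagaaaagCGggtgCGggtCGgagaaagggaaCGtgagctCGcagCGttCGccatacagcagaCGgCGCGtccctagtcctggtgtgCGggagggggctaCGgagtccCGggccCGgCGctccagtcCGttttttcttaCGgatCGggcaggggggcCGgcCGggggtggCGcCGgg
Lgr6: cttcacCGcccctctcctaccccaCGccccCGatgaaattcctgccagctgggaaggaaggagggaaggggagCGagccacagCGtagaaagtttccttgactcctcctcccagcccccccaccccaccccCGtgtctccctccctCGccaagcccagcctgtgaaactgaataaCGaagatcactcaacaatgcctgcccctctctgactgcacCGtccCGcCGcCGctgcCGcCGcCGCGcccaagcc
Lgr4: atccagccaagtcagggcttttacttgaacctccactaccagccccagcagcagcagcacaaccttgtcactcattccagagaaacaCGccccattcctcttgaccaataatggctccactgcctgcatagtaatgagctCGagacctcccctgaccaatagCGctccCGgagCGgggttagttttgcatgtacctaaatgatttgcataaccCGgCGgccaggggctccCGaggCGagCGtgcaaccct
The Rspo1 window held 22 CG, a number reached by 14.8% of the 32851 promoters of the table, whose median is 6. The Lgr6 window held 16 CG, reached by 25.4% of promoters, and the Lgr4 window held 10, reached by 37.8%. Of the 9 members 5 matched the table, with 6 promoters, and among the others Rspo4 held 24 CG and the 2 of Rnf43 held 8 and 2. None of these 6 windows held CTTTGA, the core letters bound by TCF/LEF factors, on either strand, and none held TATAAA. Those letters occur on either strand in 13.8% and 12.4% of all promoters of the same length, and their absence from these windows says nothing of binding.

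Among the ligands, Rspo1 (ENSMUSG00000028871, chr4:124986430-125009099, plus strand, GRCm38) stood apart. In Usp7 WT replicates 1 to 5 it was at 8.19, 6.70, 7.82, 6.31 and 7.89 TPM, and in Usp7 cKO replicates 1 to 5 at 32.3, 37.1, 42.9, 31.7 and 30.0 TPM. Every Usp7 cKO library lay above every Usp7 WT library, with Usp7 cKO replicate 3 the highest. The means were 7.38 ± 0.824 and 34.8 ± 5.24 TPM (SD, n = 5 each), a ratio of 4.71. On the log2(TPM + 0.5) scale used for the fit, the difference was 2.16 (SE 0.105), rank 69 from the top of 27580 genes tested, and it ranged from 2.08 to 2.24 over 21 other ways of processing. In bin CPM (bin counts of a gene relative to the total bin count of the library, on the CPM scale), which does not use gene length, Rspo1 was at 3.50 ± 0.305 in Usp7 WT against 17.4 ± 2.17 in Usp7 cKO, from 161 to 934 reads per library.

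**Figure D1:**
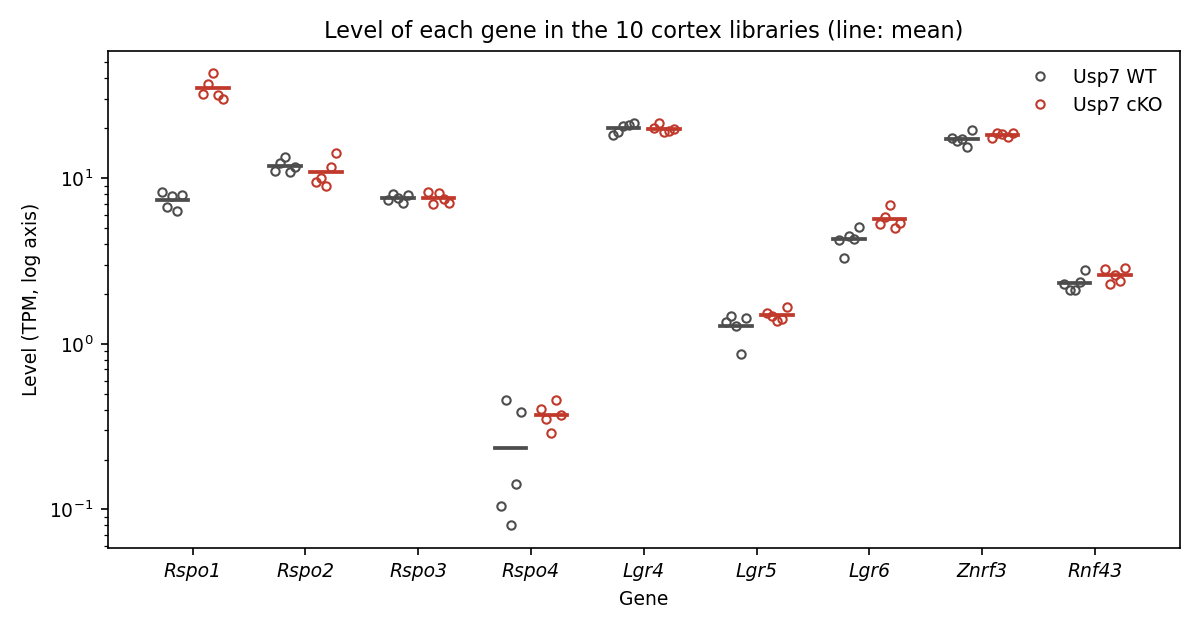
Level of each of the 9 genes in TPM on a log axis, with 1 point per library (5 Usp7 WT in grey, 5 Usp7 cKO in red) and a line at each group's mean. Rspo1 is the gene whose groups do not overlap, with Usp7 WT at 6.31 to 8.19 TPM and Usp7 cKO at 30.0 to 42.9 TPM.

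Rspo2 (chr15:43020794-43170826, minus strand), known for its part in limb and lung development in the mouse, was the most abundant R-spondin of Usp7 WT cortex. It was at 11.1, 12.3, 13.5, 10.9 and 11.7 TPM in Usp7 WT replicates 1 to 5 and at 9.50, 9.995, 8.97, 11.6 and 14.3 TPM in Usp7 cKO. The groups overlapped: 3 Usp7 cKO libraries lay below all Usp7 WT libraries and replicate 5 lay above them. The change was -0.14 (SE 0.126, limma adjusted p = 0.515).

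Rspo3 (chr10:29452416-29535867, minus strand), known for a role in blood vessel formation in the mouse, was at 7.40, 8.04, 7.58, 7.11 and 7.96 TPM in Usp7 WT. In Usp7 cKO it was at 8.22, 7.01, 8.10, 7.49 and 7.07 TPM. These ranges almost coincide, with a change of -0.01 (SE 0.0837, limma adjusted p = 0.961), whose sign turns with the processing.

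Rspo4 (chr2:151842927-151874668, plus strand), known in humans for inherited loss of nails, was barely detected. It was at 0.105, 0.459, 0.0803, 0.143 and 0.386 TPM in Usp7 WT and at 0.401, 0.349, 0.288, 0.456 and 0.374 TPM in Usp7 cKO, from 2 to 13 bin counts per library. Its mean of 0.304 TPM over the 10 libraries lay under the minimum of 0.5 TPM for the test, and a difference was not detectable at this depth (exact permutation test on bin CPM, two-sided p = 0.460, n = 5 each).

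The make-up of the R-spondin transcripts differed between genotypes with Rspo1. The 4 genes summed to 26.8, 27.5, 29.0, 24.5 and 27.9 TPM in Usp7 WT and to 50.4, 54.5, 60.2, 51.2 and 51.7 TPM in Usp7 cKO. Rspo1 made up 27.2 ± 2.36% of that sum in Usp7 WT against 64.6 ± 5.18% in Usp7 cKO (SD, n = 5 each). Rspo2 went from 43.8 ± 2.14% to 20.5 ± 4.84% and Rspo3 from 28.1 ± 1.26% to 14.2 ± 1.34% of the sum, while their own TPM overlapped between groups. Without Rspo1 the sum was 19.7 ± 1.31 TPM in Usp7 WT against 18.8 ± 1.85 TPM in Usp7 cKO.

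**Figure D2:**
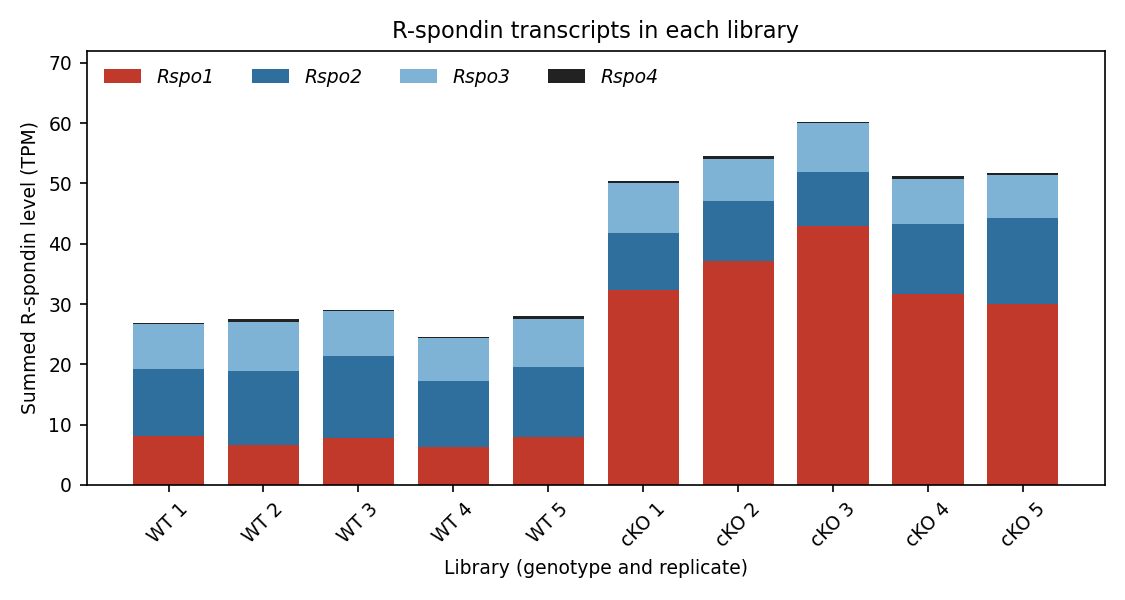
Summed TPM of the 4 R-spondin genes in each library (bars from 0), with the part of each gene stacked, for Usp7 WT (WT) and Usp7 cKO (cKO) replicates 1 to 5. The sum is 24.5 to 29.0 TPM in Usp7 WT and 50.4 to 60.2 TPM in Usp7 cKO, and the red part, Rspo1, is what sets the groups apart.

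The higher Rspo1 counts ran through the whole gene. It is counted in 8 bins, of which 7 had enough reads to be described by a ratio, and in these the CPM values were 3.77 to 5.79 times as high in Usp7 cKO. The first exon, bin 1, held 12, 10, 16, 9 and 11 reads in Usp7 WT and 52, 68, 64, 69 and 51 reads in Usp7 cKO, so the difference was also present at the 5′ end. Bin 5 is the part of a short annotated transcript that lies just before exon 5 of the full-length one, and no coding sequence is annotated in it. It held 0, 1, 1, 1 and 0 reads in Usp7 WT and 6, 11, 10, 12 and 5 reads in Usp7 cKO.

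The bin with the smallest ratio, 3.77, was bin 6, which is exon 5 of the 6 exons of the full-length transcript, 189 bases that are all coding. This exon encodes the thrombospondin type 1 repeat, the domain of R-spondins that binds heparan sulfate. It is shown because its share of the reads differed from the rest of the gene, as chr4:125007584-125007772 on the plus strand of GRCm38 (GENCODE M21), with no part capitalised.
Rspo1 exon 5: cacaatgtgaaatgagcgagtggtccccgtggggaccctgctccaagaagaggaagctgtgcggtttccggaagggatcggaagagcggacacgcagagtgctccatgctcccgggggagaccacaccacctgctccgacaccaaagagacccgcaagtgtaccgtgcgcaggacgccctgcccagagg
It held 53, 48, 44, 47 and 40 reads in Usp7 WT and 147, 201, 167, 169 and 149 reads in Usp7 cKO. Its share of all Rspo1 bin counts was 27.2 ± 3.08% in Usp7 WT against 20.5 ± 1.97% in Usp7 cKO (SD, n = 5 each), with ranges of 23.1 to 29.8% and 17.9 to 23.3% that overlap slightly. Relative to the whole gene the change in this bin was -0.28 on the log2 scale, and the authors' deposited table lists -0.42 for it. The bin was picked after its values were seen, so they only describe it. The other 6 of the 7 bins went with the gene to within 0.05 to 0.14 on the log2 scale.

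**Figure D3:**
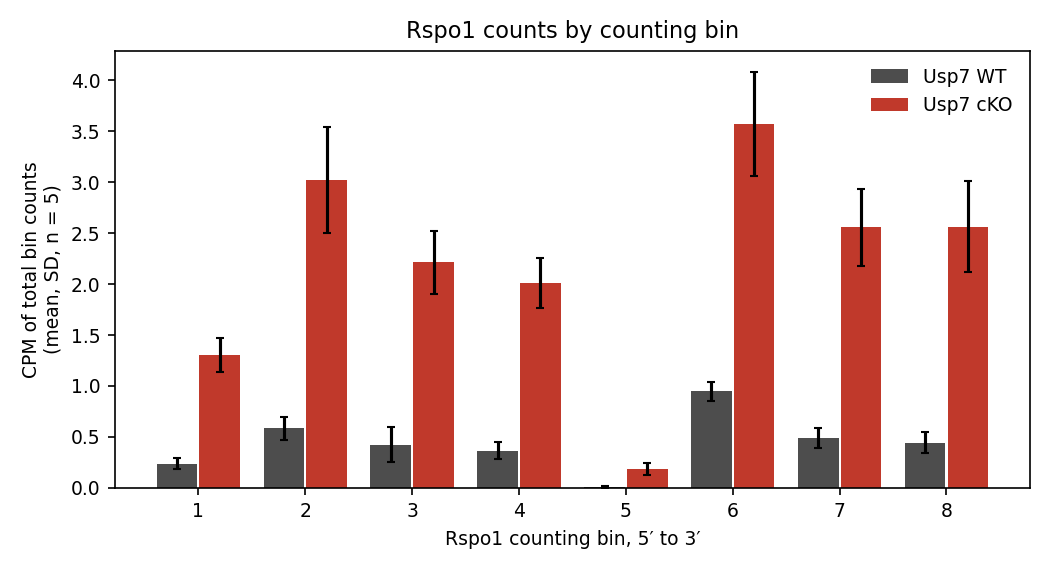
CPM in each of the 8 counting bins of Rspo1, from 5′ to 3′, as mean and SD over 5 Usp7 WT (grey) and 5 Usp7 cKO (red) libraries. All 8 bins are higher in Usp7 cKO, and bin 6 has the smallest of the 7 ratios described, 3.77.

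Among the receptors, Lgr4 (chr2:109917647-110014257, plus strand), the most broadly expressed receptor for R-spondins, was the most abundant. It was at 18.2, 19.0, 20.7, 20.99 and 21.4 TPM in Usp7 WT and at 20.1, 21.4, 19.1, 19.2 and 19.7 TPM in Usp7 cKO. The Usp7 cKO libraries lay within or next to the Usp7 WT range, with a change of -0.01 (SE 0.0648, limma adjusted p = 0.948).

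Lgr5 (chr10:115450311-115587780, minus strand), known as a stem cell marker of the mouse intestine and as a Wnt target, was at 1.34, 1.48, 1.27, 0.872 and 1.43 TPM in Usp7 WT. In Usp7 cKO it was at 1.54, 1.46, 1.37, 1.42 and 1.67 TPM. The groups overlapped, and Usp7 WT replicate 4 was the lowest library (log2 0.17, SE 0.137, limma adjusted p = 0.452).

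Lgr6 (ENSMUSG00000042793, chr1:134983301-135105276, minus strand), known as a stem cell marker of mouse skin, came nearest to a call. It was at 4.26, 3.30, 4.45, 4.28 and 5.10 TPM in Usp7 WT and at 5.30, 5.83, 6.84, 4.97 and 5.35 TPM in Usp7 cKO. All but 1 of the Usp7 cKO libraries lay above every Usp7 WT library, the exception being replicate 4. The means were 4.28 ± 0.645 and 5.66 ± 0.731 TPM (SD, n = 5 each), with a log2 change of 0.37 (SE 0.130), an unadjusted p of 0.0174 and an adjusted p of 0.0909 in limma. In bin CPM the groups did not overlap, as for 16.7% of all genes (11.8% with Usp7 cKO higher). Lgr6 was at 6.51, 5.49, 6.56, 7.52 and 7.13 in Usp7 WT and at 8.26, 9.51, 10.6, 8.55 and 8.84 in Usp7 cKO, from 278 to 484 reads per library. On these counts the change was 0.38 with edgeR (adjusted p = 0.00912) and 0.37 with DESeq2 (adjusted p = 0.00134). Both tools called more genes than limma, 23.6% and 27.9% of those they tested, with 12.0% and 13.2% called higher. Without the 2 libraries of discordant sex the change in TPM was 0.27 (limma adjusted p = 0.257), so the size of this difference depends in part on them.

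The mean share of Lgr6 among the receptors was higher in Usp7 cKO, a description that was not tested. The 3 receptor genes summed to 25.6 ± 1.81 TPM in Usp7 WT against 27.1 ± 1.13 TPM in Usp7 cKO, and these ranges overlap. Lgr6 made up 16.7 ± 1.73% of the sum in Usp7 WT against 20.9 ± 2.36% in Usp7 cKO (SD, n = 5 each), with ranges of 13.9 to 18.3% and 19.4 to 25.05%. How often such a share separates the groups for other genes was not computed, and in TPM the Lgr6 groups overlapped. Lgr4 made up 78.3 ± 1.79% and 73.6 ± 2.10%.

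Over the exons of Lgr6, 1 bin stood apart in the authors' table but did not pass the edgeR test run here. In the authors' deposited table, among 118 bins of the members with a value, 2 had an adjusted p under 0.05, against 0.573% of all bins with such a value, and besides bin 6 of Rspo1 the other was bin 14 of Lgr6. This bin is exon 7 of the 18 exons of the longest Lgr6 transcript, 69 coding bases in the part that encodes the leucine-rich repeats of the receptor, and is shown as chr1:135005691-135005759 on the minus strand (GRCm38, GENCODE M21), with no part capitalised.
Lgr6 exon 7: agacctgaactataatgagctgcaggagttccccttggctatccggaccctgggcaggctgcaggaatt
It held 4, 3, 3, 3 and 3 reads in Usp7 WT and 11, 12, 18, 9 and 10 reads in Usp7 cKO. That was 0.998 ± 0.190% of all Lgr6 reads in Usp7 WT against 2.80 ± 0.661% in Usp7 cKO (SD, n = 5 each). The bin was picked by its adjusted p in the authors' table, which rests on the same counts, so these shares only describe it. The authors' deposited table gives a log2 change in usage of 1.51 with an adjusted p of 0.0226. With a mean of 7.60 reads the bin lay under the minimum of 10 set here, and in the edgeR fit without that minimum its usage difference was 1.02 on the log2 scale (adjusted p = 0.112). The exons on either side were also among those with the larger ratios in CPM: 2.17 for exon 6 (bin 16) and 2.18 for exon 8 (bin 13), against 1.20, 1.01 and 1.19 for exons 3, 4 and 5. Exon 6 had the largest usage change of the Lgr6 bins tested, 0.48, and did not pass (edgeR adjusted p = 0.887). The first exon of a shorter transcript, bin 15, which lies between exons 6 and 7, held 1 read over the 5 Usp7 WT libraries together and 2 over the 5 Usp7 cKO libraries.

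**Figure D4:**
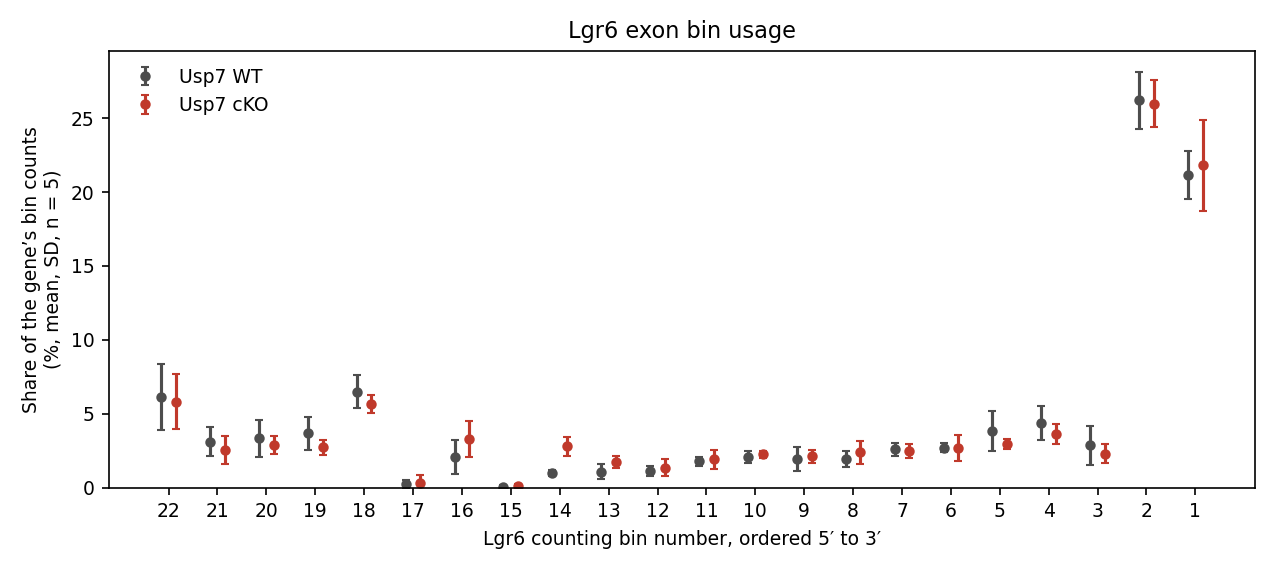
Share of the Lgr6 bin counts in each of its 22 counting bins, ordered 5′ to 3′, as mean and SD over 5 Usp7 WT (grey) and 5 Usp7 cKO (red) libraries, in percent. Bin 14 is at 0.998% in Usp7 WT against 2.80% in Usp7 cKO, and the long 3′ bins 2 and 1 hold the largest shares in both.

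Of the ligases, Znrf3 (chr11:5276324-5444847, minus strand) was the second most abundant member in Usp7 WT. It was at 17.5, 16.7, 17.3, 15.4 and 19.4 TPM in Usp7 WT and at 17.5, 18.7, 18.6, 17.7 and 18.6 TPM in Usp7 cKO. All Usp7 cKO libraries lay inside the Usp7 WT range, with a change of 0.08 (SE 0.0613, limma adjusted p = 0.440). Its bin CPM values were 29.0 ± 1.44 and 31.7 ± 1.18 (exact permutation test, two-sided p = 0.0238, n = 5 each), and those groups overlap. An unadjusted p under 0.05 in that test was reached by 31.7% of all genes. On the same counts the change was 0.05 with edgeR (adjusted p = 0.562) and 0.04 with DESeq2 (adjusted p = 0.646).

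Rnf43 (chr11:87662722-87735539, plus strand), the other ligase and like Znrf3 a known target of Wnt signalling, was at 2.31, 2.10, 2.12, 2.34 and 2.77 TPM in Usp7 WT. In Usp7 cKO it was at 2.84, 2.28, 2.61, 2.38 and 2.87 TPM, and 2 of these libraries lay above all Usp7 WT libraries. The change was 0.13 (SE 0.123, limma adjusted p = 0.533). Znrf3 made up 88.1 ± 0.933% of the TPM of both ligases in Usp7 WT against 87.5 ± 1.21% in Usp7 cKO.

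Counted over the 7 tested members other than Rspo1, 0 were called by limma at an adjusted p under 0.05, against 13.9% of all genes (9.22% higher and 4.67% lower in Usp7 cKO), and 1 had an unadjusted p under 0.05. That split of higher over lower calls depends on scaling: after a median-of-ratios rescaling of TPM, 20.3% of genes were called, 9.80% higher and 10.5% lower, and again 0 of the 7 members. edgeR and DESeq2 each called 1 of the members, Lgr6, as higher. The median change of the 7 members was 0.08, beside 0.06 over all genes tested. None of the 8 members other than Rspo1 had groups that did not overlap in TPM, against 12.8% of all genes. In bin CPM 1 of the 8 had such groups, against 16.7% of all genes (11.8% with Usp7 cKO higher). An exact permutation test on those counts gave a two-sided p of 0.00794 for Lgr6, the smallest it can give with 5 against 5 libraries, and an unadjusted p under 0.05 for 2 of 8 members, Lgr6 and Znrf3, against 31.7% of all genes. That number was 4 of 8 without Usp7 cKO replicate 2 and 1 of 8 without the 2 libraries of discordant sex.

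The order of the members by level differed between genotypes in the place of Rspo1. In Usp7 WT the mean TPM fell in the order Lgr4, Znrf3, Rspo2, Rspo3, Rspo1, Lgr6, Rnf43, Lgr5 and Rspo4, and the libraries of Lgr4 and Znrf3 and those of Rspo3 and Rspo1 overlapped. In Usp7 cKO Rspo1 came first, above Lgr4 at 19.9 ± 0.945 TPM, and the others kept their order, with no overlap between neighbours.

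Use of exons and introns was tested over whole tables. Of the members other than Rspo1, 65 bins could be tested and 0 were called by edgeR, against 0.430% of all bins tested and 2.85% of genes. Only Rspo2 is listed in the deposited intron counts, and absence of the other members there does not mean that they had no spliced reads. Rspo2 had 4 introns in 2 groups of introns with a shared splice site, and neither group was called (edgeR adjusted p = 1 for both, against 0.220% of all groups called). In the first, donors 21 bases apart were joined to the same acceptor. The donor that is not annotated took 6, 10, 7, 9 and 5 reads in Usp7 WT and 0, 11, 16, 8 and 8 reads in Usp7 cKO, a share of 21.7 ± 5.11% and 25.1 ± 20.2% (SD, n = 5 each). The Usp7 cKO libraries thus ran from the lowest to the highest share of all 10.

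With the genotype means removed, the libraries with more Rspo1 tended to have more Lgr6 (Pearson r = 0.72 over 10 libraries) and Znrf3 (r = 0.56) and less Rspo2 (r = -0.50). Usp7 cKO replicate 3 had the most Rspo1 and Lgr6 and the least Rspo2 of the 10 libraries. Over the 14727 genes whose mean reached 1 TPM, the 5 named genes that varied most like Rspo1 within genotypes were Kctd15 (r = 0.97), Mfsd4a (0.97), Krt20 (0.97), Cabp1 (0.96) and Mir654 (0.96). Of these, Kctd15 rose from 12.7 ± 1.30 to 23.8 ± 3.01 TPM (limma adjusted p = 0.000173) and Krt20 fell from 13.4 ± 2.16 to 8.94 ± 2.66 TPM (adjusted p = 0.0430). Within a library all of these values come from the same piece of tissue and the same sequencing, and the correlations carry no test.

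Rspo1 was also set beside other markers of layer 4. Of 8 markers tested, 4 were lower and 1 was higher in Usp7 cKO, and their median change was -0.36 against 0.06 over all genes. Over all genes 4.67% were called lower and 9.22% higher. Rorb, the transcription factor that marks layer 4, fell from 34.3 ± 3.19 to 21.3 ± 3.11 TPM (log2 -0.68, limma adjusted p = 0.00163). Scnn1a, which encodes a sodium channel subunit, rose from 5.20 ± 0.711 to 8.93 ± 1.42 TPM (log2 0.72, adjusted p = 0.00370). Endou and Hsd11b1 were lower by limma (log2 -0.68 and -0.51, adjusted p = 0.0125 and 0.0206), and Kcnh5 was the other marker called lower (log2 -0.59, adjusted p = 0.0226). Without the 2 libraries of discordant sex 1 of the 8 markers was called lower and 1 higher, as the number called over all genes went from 3832 to 2181. The summed level of the layer 4 list was 263 to 312 TPM in Usp7 WT and 190 to 273 TPM in Usp7 cKO, and these ranges overlap. Rspo1 and Scnn1a went the other way from the 4 markers called lower, while 3 of the list were not called. In the lists of other layers, 3 of 8 markers were higher and 3 lower for layer 2/3, 1 of 10 higher and 3 lower for layer 5, and 1 of 9 higher and 5 lower for layers 6 and 6b. Without the 2 libraries of discordant sex layer 5 had 0 higher and 0 lower, and layers 6 and 6b had 1 higher and 2 lower. Of the layer 5 markers called lower, Chrna6 (1.01 TPM in Usp7 WT, 0.360 TPM in Usp7 cKO) passed the minimum for the test through Usp7 WT alone.

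R-spondins act through Wnt ligands and their receptors, whose genes were described as lists. The counts here and in the lists that follow stand beside 9.22% of all genes called higher by limma and 4.67% lower. After rescaling of TPM those shares were 9.80% and 10.5%. The lists were chosen with earlier results of these data known, and most genes are named by smallest p. Their p-values are thus descriptions. Of 17 tested genes for Wnt ligands and their secretion, 10 rose and 1 fell in Usp7 cKO, with a median change of 0.36. Of the 10, Wnt11 (0.347 TPM in Usp7 WT, 1.15 TPM in Usp7 cKO) passed the minimum for the test through Usp7 cKO alone. Wnt7b, a ligand of cortical neurons, rose from 31.5 ± 2.32 to 61.2 ± 2.63 TPM (log2 0.95, limma adjusted p = 5.99e-06). Wnt1 rose from 4.18 ± 0.503 to 10.4 ± 0.886 TPM (log2 1.22, adjusted p = 4.08e-05), Wnt5b by 1.09 and Wnt2b by 0.73 on the log2 scale (adjusted p = 0.000422 and 0.000822). Without the 2 libraries of discordant sex 6 were called higher and 1 lower.

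Of 16 Wnt receptors and co-receptors 6 rose and 0 fell, with a median change of 0.29. Fzd9, a Frizzled, rose from 8.08 ± 0.845 to 19.4 ± 1.73 TPM (log2 1.22, limma adjusted p = 1.41e-05), and Fzd7 from 5.36 ± 0.587 to 10.2 ± 0.752 TPM (log2 0.87, adjusted p = 0.000326). Ror2, a receptor kinase for Wnt5a, rose from 2.19 ± 0.282 to 7.51 ± 1.19 TPM (log2 1.57, adjusted p = 7.23e-05). Ptk7 rose by 0.59 on the log2 scale (adjusted p = 0.000759). Frizzled proteins are what ZNRF3 and RNF43 act on, and both ligases themselves were not called. With TPM rescaled 7 receptors were higher and 1 lower, and in edgeR and DESeq2 8 were higher, and 1 and 2 lower.

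Syndecans and glypicans are cell surface proteoglycans that R-spondins can bind, and 5 of 10 rose and 0 fell (median change 0.22). Sdc1 rose from 1.44 ± 0.274 to 4.02 ± 0.607 TPM (log2 1.22, limma adjusted p = 0.000550) and Gpc3 from 3.48 ± 0.506 to 6.86 ± 0.572 TPM (log2 0.89, adjusted p = 0.000876). Gpc5 and Sdc3 rose by 0.33 and 0.24 (adjusted p = 0.00538 and 0.0112). With TPM rescaled, or without the 2 libraries of discordant sex, 3 of the 10 were called higher, and Sdc3 was not among them.

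Inside the cell, 2 of 24 genes of the β-catenin destruction complex and its nuclear partners rose and 3 fell (median change 0.09). Over all genes 9.22% were called higher and 4.67% lower, and counts this small are not read as a result about the list. Apc, the scaffold of the complex, fell from 351 ± 29.7 to 256 ± 5.82 TPM (log2 -0.45, limma adjusted p = 0.000625), and Gsk3b, its kinase, from 137 ± 7.75 to 116 ± 3.11 TPM (log2 -0.24, adjusted p = 0.00780). The transcription factors Tcf7 and Tcf7l1 rose by 0.61 and 0.37 (adjusted p = 0.0205 and 0.0368). Without the 2 libraries of discordant sex 0 of the 24 were called higher and 2 lower, and with TPM rescaled 4 were higher and 6 lower.

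Of 17 tested target genes of Wnt and β-catenin, 5 rose and 2 fell, with a median change of 0.10. The largest rise was in Nkd2, an inhibitor that acts on Dishevelled, from 3.25 ± 0.123 to 13.9 ± 1.24 TPM (log2 1.93, limma adjusted p = 5.42e-07). Notum, an enzyme that inactivates Wnt proteins, rose from 2.26 ± 0.718 to 6.04 ± 1.40 TPM (log2 1.26, adjusted p = 0.000738), and Nkd1 from 15.6 ± 0.748 to 23.3 ± 1.60 TPM (log2 0.56, adjusted p = 0.000396). Cd44, a cell adhesion protein, fell from 2.75 ± 0.273 to 1.41 ± 0.276 TPM (log2 -0.77, adjusted p = 0.00406). Cd44 is also expressed by microglia, whose markers were lower, and a link between them was not tested. Axin2, a target often read as a reporter of the pathway and named here after its value was seen, was at 24.3 ± 3.75 and 24.5 ± 3.05 TPM (log2 0.01, adjusted p = 0.952). Without the 2 libraries of discordant sex 3 targets were called higher and 2 lower.

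**Figure D5:**
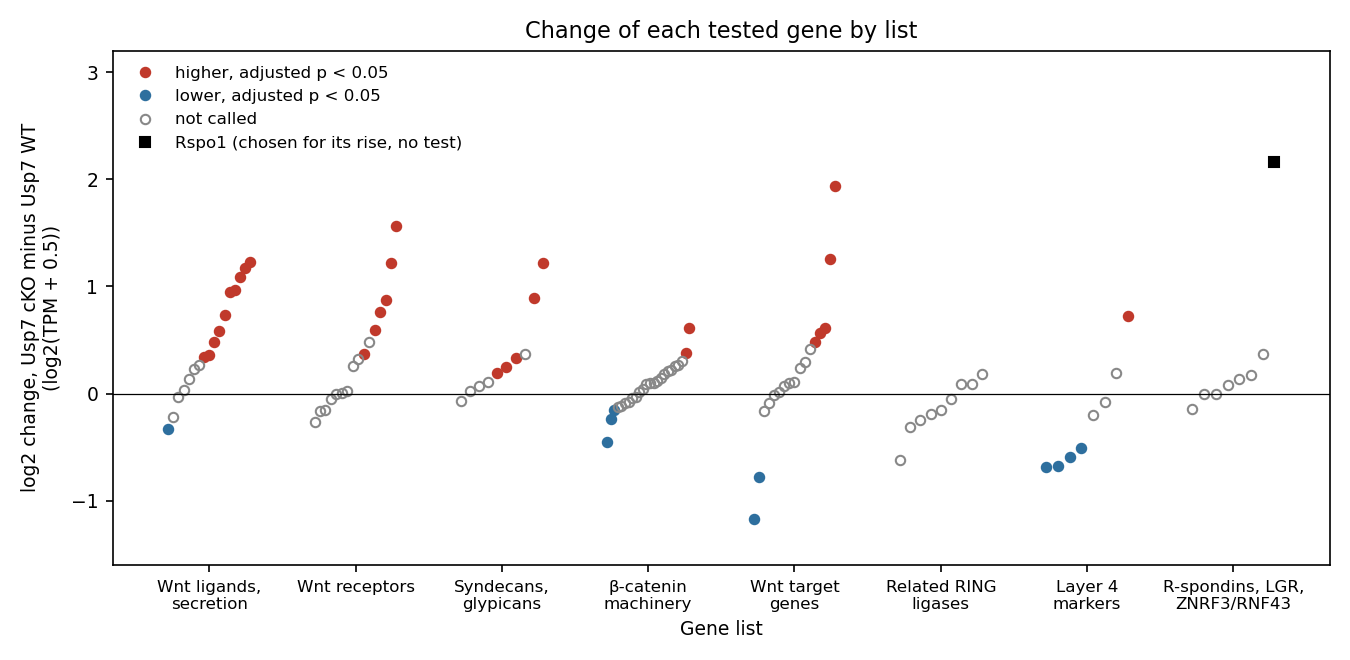
Change of each tested gene (log2(TPM + 0.5), Usp7 cKO minus Usp7 WT) by list, each list sorted from lowest to highest, with filled points for genes called by limma at an adjusted p under 0.05. Rspo1 (black square, 2.16) lies above every gene of the lists shown, of which Nkd2 (1.93) is the highest, while the 7 other tested members lie between -0.14 and 0.37 with none called.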

How the data were processed

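RNA levels of 10 mouse cortices were taken from 3 deposited tables. Gene levels are in TPM, as deposited by the authors; 287 repeated lines were counted once, and each library sums to 1000000. Exon bin values and intron values are raw read counts, per the deposited file headers. The authors' table also gives a log2 fold change of bin usage with its p-value and adjusted p-value, as the deposited headers name them. GRCm38, SAMtools 1.10, STAR 2.7.9a, Subread and featureCounts are named in the submitters' processing notes. The counting strand is not given in the sources used here, so reads of a gene and of an overlapping antisense gene cannot be told apart. Intron counts totalled 3388310 to 4367711 per library; those of Usp7 WT replicate 1 were all even and were halved.

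Genes whose mean reached 0.5 TPM were tested with limma 3.58.1 (R 4.3.3, trend and robust) on log2(TPM + 0.5) with labelled sex as covariate. A fold on this scale understates the change of low genes. Usage of bins (mean count at least 10) and introns (at least 5) was tested with edgeR 4.0.16 (glmQLFit, diffSpliceDGE), and DESeq2 1.42.0 was an alternative on bin counts summed per gene. P-values are two-sided and Benjamini-Hochberg adjusted over all features, at a threshold of 0.05. Scripts were tested on simulated data. Single values were compared by exact permutation over 252 regroupings (scipy 1.17.1).

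The members and the gene lists were chosen with earlier results of these data known. Named genes are the members, Usp7 and Neurod6, up to 4 genes with the smallest p of each list, the 5 genes most like Rspo1, and 3 coding genes on each side of it; Axin2, Kcnh5, Wnt11 and single bins were named after their values were seen. A gene that the rule names is not reported here. Positions and exons come from GENCODE M21 (GRCm38), and upstream sequences from RefSeq. Each library is 1 animal by label, and TPM keeps no depth. A covariate taken from the Xist class was added after the data were seen, as were the single values without each library and the list counts under each alternative.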

Additional observations from a re-analysis of the deposited data

How the results depend on the processing

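Each result was recomputed under 21 alternatives for gene levels, and the cause of each difference below was not tested. The 3832 genes called became 6248 with edgeR (50.7% of them higher) and 6496 with DESeq2 (47.3% higher). They became 2181 without both libraries of discordant sex (60.2% higher) and 3018 with the Xist class as covariate (56.7% higher). When each library was left out in turn, 2794 to 3585 were called. Of the members other than Rspo1, 1 was called higher in edgeR and 1 in DESeq2, Lgr6 both times, and 0 under the other alternatives; its adjusted p ran from 0.00134 to 0.257. The change of Rspo3 turned positive in edgeR (0.0347) and DESeq2 (0.0276) and ran from -0.0430 to 0.0195 when each library was left out, and that of Lgr4 ran from -0.0418 to 0.0210. The 397 genes called for exon usage became 215 without the discordant libraries, 162 with the Xist class as covariate and 237 to 370 when each library was left out, with 237 to 259 for Usp7 WT replicates 1 and 2 and Usp7 cKO replicate 5. The 23 groups of introns became 12 to 26, with 12 to 15 on leaving out Usp7 WT replicate 1, Usp7 WT replicate 2, or any of Usp7 cKO replicates 2, 4 and 5. No bin or intron of the members other than Rspo1 was called under any of these. The 2 members with a permutation p under 0.05 became 1 without the discordant libraries and 2 to 4 when each library was left out, with 4 without Usp7 cKO replicate 2. Libraries with the same number ending the title gave pair correlations of -0.02 to 0.09, against -0.09 to 0.03 for different numbers. The numbers were not taken as pairs. With the replicate block 3654 genes, 427 genes for exon usage and 19 groups of introns were called, and 0 members. Low counts limit Rspo4, Lgr5, Rnf43 and single bins.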

Other observations

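The genes next to Rspo1 on chromosome 4 did not all behave alike. Epha10, an ephrin receptor gene whose end lies 68.6 kb before the start of Rspo1, rose from 32.7 ± 3.15 to 76.1 ± 17.8 TPM (SD, n = 5 each, log2 1.18, limma adjusted p = 0.000102). Between Epha10 and Rspo1, Cdca8 and 9930104L06Rik were not called (log2 0.42 and -0.08, adjusted p = 0.147 and 0.636). After Rspo1, Gnl2, which begins 7.49 kb behind its end, was at 40.1 ± 4.31 and 45.9 ± 6.44 TPM (log2 0.19, adjusted p = 0.169). Dnali1, further on, was not called either (log2 0.53, adjusted p = 0.0805).

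Relatives of the members by protein family were described too, beside 9.22% of all genes called higher by limma and 4.67% lower. Of 9 other protease-associated transmembrane RING ligases, the family of ZNRF3 and RNF43, 0 were called by limma (median change -0.16), while with TPM rescaled 2 were lower and in edgeR and DESeq2 3 were lower. Of 3 tested leucine-rich repeat hormone receptors, the relatives of the LGR genes, 2 fell: Rxfp1 from 8.09 ± 0.769 to 5.88 ± 0.896 TPM (log2 -0.44, limma adjusted p = 0.0362) and Rxfp2 from 1.51 ± 0.275 to 0.755 ± 0.381 TPM (log2 -0.72, adjusted p = 0.0284). The call of Rxfp1 was lost under 11 of 21 alternatives and that of Rxfp2 under 7 of 21. For both, the fit without the 2 libraries of discordant sex was among them. Of 11 other matrix proteins with a thrombospondin type 1 repeat, the repeat of R-spondins, 1 rose and 1 fell. Ccn2 fell from 31.1 ± 1.52 to 17.2 ± 2.33 TPM (log2 -0.85, adjusted p = 0.000278), and Ccn3 was at 195 and 221 TPM (log2 0.18, adjusted p = 0.0495), a call lost under 15 of 21 alternatives, among them the fit without the 2 libraries of discordant sex.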
